A study of Mus musculus with 2 samples.

Results

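The genes described here are 10 genes grouped under the actin cytoskeleton of smooth muscle type. They are Tagln, Acta2, Myl9, Tpm1, Tpm2, Cnn2, Lgals1, S100a6, Anxa3 and Flnc. All were followed through a comparison of mouse embryonic stem cells with and without overexpressed ID2. They were taken by gene symbol from the deposited expression table, which lists 14398 genes, and 9 of the 10 were found. Myl9 has no row under its symbol or its RefSeq synonyms, and no level is given for it here. The 10 genes were selected on their values in both libraries of this comparison, so their shared direction describes the choice and was not tested.

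The cells were of the 46C line, mouse embryonic stem cells in which GFP reports expression of the neural gene Sox1, at passages 21 to 24. Both were kept on gelatin in medium with serum and leukemia inhibitory factor (LIF), a cytokine that sustains self-renewal. The control culture was transfected with the empty vector (PB), and the other with the vector that carries ID2 (PB-ID2). What promoter the vector used, and whether a culture was a pool or a clone, is not stated in the sources used here. ID2 lacks a DNA-binding region of its own and acts by pairing with E proteins, which then cannot bind their sites. With 1 library per group, no difference below has an error, a replicate check or a test, and "lower" means lower in the ID2 library than in the control. Id2 itself stood at 324 with the empty vector and at 26225 with the ID2 vector. All levels are the authors' normalized values, whose sequencing depth is unknown. A ratio is log2((ID2 value + 1)/(control value + 1)). The RNA came from whole cultures, so fewer cells of a type and less RNA per cell cannot be told apart.

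Actin filaments are built from actin monomers, wrapped by tropomyosins, pulled on by myosin and cross-linked by filamins, while transgelin and calponins bind along them. Many of these genes are targets of serum response factor (SRF), a DNA-binding protein that recognizes the CArG box, and of its cofactors of the myocardin family (MRTFs). Monomeric actin holds MRTFs in the cytoplasm, so assembly of filaments frees them to act with SRF. In adult tissue Acta2, Tagln and Myl9 are known from smooth muscle and contractile fibroblasts, whereas tropomyosins, calponin 2, galectin 1 and the calcium-binding S100 and annexin proteins are made by many cell types.

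The smooth muscle name refers to the textbook role of some of these genes. Whether any cells of that type were present was not tested. Of 7 markers of smooth muscle, Actg2 and Myocd were not listed, Myh11 (33.8 in the control, 25.1 in ID2) and Cnn1 (48.8 and 24.1) had means under 50, and Smtn (1202 and 1232), Lmod1 (55.7 and 54.3) and Des (1809 and 1477) had ratios of 0.04, −0.04 and −0.29. All 10 markers of embryonic stem cells were listed, with Pou5f1 at 12770 and 13619 and Nanog at 14938 and 17563. The set is therefore called the actin cytoskeleton set here. This name is a label for the group, since Lgals1, S100a6 and Anxa3 encode a lectin, a calcium-binding protein and a phospholipid-binding protein.

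Promoter sequences come first, because the CArG box is the element that much of this gene program is known for. RefSeq's promoter table (build GRCm38.p6, a later build than the mm9 of the expression table) gives windows from 250 bases before to 50 after the start site for 7 of the 10 genes, and none was found for Tagln, Lgals1 and Anxa3. A script searched both strands for the CArG box and for versions with 1 mismatch in its 6 central bases. The 4 sequences below are the 200 bases before the start site, 5′ to 3′ along the gene's strand, with each exact or 1-mismatch CArG box in capitals. Acta2 is shown because its ratio was the lowest, Cnn2 because its box is exact, Actg1 as an actin gene outside the set with an exact box, and Tpm1 as a gene of the set without one.
Acta2, chr19:34255374-34255573, minus strand: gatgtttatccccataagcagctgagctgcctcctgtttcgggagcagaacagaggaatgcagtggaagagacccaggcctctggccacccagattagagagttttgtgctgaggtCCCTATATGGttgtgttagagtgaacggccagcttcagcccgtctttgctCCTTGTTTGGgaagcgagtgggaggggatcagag
Cnn2, chr10:79988400-79988599, plus strand: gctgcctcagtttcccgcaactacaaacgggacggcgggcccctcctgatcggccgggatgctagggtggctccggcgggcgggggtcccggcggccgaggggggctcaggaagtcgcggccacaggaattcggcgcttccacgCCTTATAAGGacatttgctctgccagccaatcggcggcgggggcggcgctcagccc
Actg1, chr11:120348496-120348695, minus strand: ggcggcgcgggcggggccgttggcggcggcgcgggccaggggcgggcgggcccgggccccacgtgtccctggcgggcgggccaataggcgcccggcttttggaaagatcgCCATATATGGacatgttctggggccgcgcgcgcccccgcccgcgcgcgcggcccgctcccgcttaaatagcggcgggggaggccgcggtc
Tpm1, chr9:67049214-67049413, minus strand: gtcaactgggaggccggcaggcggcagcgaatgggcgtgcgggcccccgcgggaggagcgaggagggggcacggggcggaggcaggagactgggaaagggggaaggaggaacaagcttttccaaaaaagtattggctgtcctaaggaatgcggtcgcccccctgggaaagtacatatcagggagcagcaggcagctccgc

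The Acta2 promoter held a pair of 1-mismatch boxes, CCCTATATGG at −84 to −75 and CCTTGTTTGG at −34 to −25 from the start site. Cnn2 held the exact box CCTTATAAGG at −56 to −47, and Actg1 held the exact box CCATATATGG at −90 to −81. Myl9, which has no value in the table, held an exact box at −161 to −152 and a 1-mismatch box at −99 to −90. Flnc held a 1-mismatch box at −163 to −154 in 1 of its 2 windows. Tpm1, Tpm2 and S100a6 held neither. An exact box stood in 2 of the 7 genes with a window, beside 488 of all 27025 genes in the promoter table (1.81%), and a 1-mismatch box in 3 of the 7, beside 9.69% of all genes. Among the other listed genes of the same protein families, 4 of 30 had an exact box: Actg1, Anxa5, Myl6 and Myl7. Of their relatives that were not listed, Acta1, Actc1 and Myl3 held one too. The 2 of the 7 were Cnn2 and Myl9, which was not listed, so these counts cover unlike genes.

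Ratios of genes with a box were set beside those of all genes with a promoter window. Of 138 genes with an exact box and a mean of at least 50, 2 (1.45%) were at least 2-fold lower and 4 (2.90%) at least 2-fold higher, with a median ratio of 0.04. Counting 1-mismatch boxes too, 21 of 989 genes (2.12%) were at least 2-fold lower and 32 (3.24%) at least 2-fold higher, with a median of 0.01. Over all 9397 genes with a window above that floor, these shares were 1.46% and 2.39% and the median was 0.01. Acta2, under that floor, and Tagln, without a window, enter none of these shares, which therefore say nothing about either. Motifs of other factors were searched in the same windows. The E-box CANNTG, which E proteins and other helix-loop-helix factors bind, stood in 6 of the 7 genes, beside 75.0% of all genes. The version CAGCTG stood in Acta2 and Tpm2 (18.3% of all genes) and CACCTG in Myl9 (22.6%); both also count as CANNTG. The motif GGAATG, bound by TEAD factors, stood in Acta2, Tpm1 and Flnc (16.6%), and the SMAD motif CAGAC in Acta2 and S100a6 (53.2%). TATAAA was in none of the 7 (15.7%, or 8.28% of the genes in the deposited table), and GGGCGG, bound by SP factors, was in 5 (38.2%, or 69.9% of the deposited genes). These matches are descriptions of the sequence and say nothing about binding in these cells.

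All 9 listed genes of the set were lower in the ID2 library, which the choice of the set determined; of all 14398 genes, 51.2% were lower by any amount. A 2-fold difference was reached by 2 of the 9 (Acta2 and Tagln), beside 3.26% of all genes. This count of the set without a floor was added after the data were seen. Further counts were limited to the 12679 genes with a mean of at least 50 over both libraries, where 51.5% were lower by any amount. The differences were of very unequal size. Acta2 and Tagln stood far apart between the libraries, Cnn2 and Tpm1 stood apart by about as much as the outer genes of their level, and the other 5 lay within the bulk of genes of like level. Above the floor of 50, 1 of the 8 genes (Tagln) was at least 2-fold lower, and 0 at least 2-fold higher, beside 1.86% and 2.53% of all genes, and 2 (Tagln and Cnn2) were at least 1.5-fold lower, beside 6.59%. The median ratio of the 8 was −0.42, beside −0.0023 over all genes. Both libraries had been given a common distribution, so the value over all genes could not show a shift of all genes together.

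**Figure D1:**
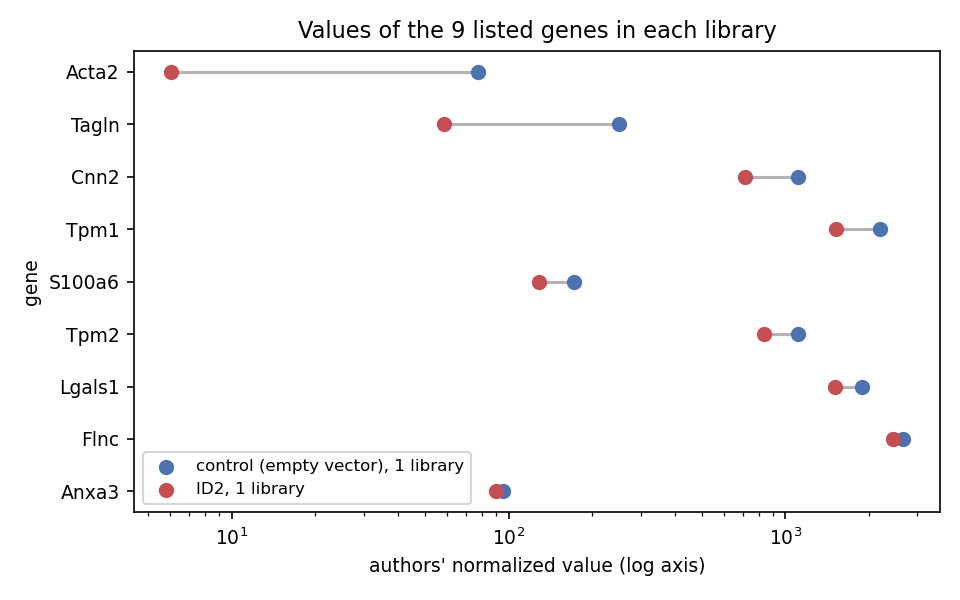
Authors' normalized value (log axis) of each listed gene of the actin cytoskeleton set in the control library (blue) and the ID2 library (red), with 1 library per group and a grey line joining each pair; genes are ordered by ratio. Acta2 (77.6 and 6.03) and Tagln (251 and 58.3) are far apart, and Anxa3 and Flnc nearly coincide.

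Acta2 encodes smooth muscle alpha actin, the actin that builds contractile fibers in smooth muscle and myofibroblasts. Its control value was 77.6 and its ID2 value 6.03, 11.2-fold lower after the pseudocount of 1 (ratio −3.48). Its mean of 41.8 lies under the floor of 50, so it enters no count above that floor. The 1719 genes under the floor had ratios from −1.52 at the 5th percentile to 1.60 at the 95th, and Acta2 had the fourth-lowest ratio of all listed genes. Because its ID2 value is so small, the size of the ratio depends on the pseudocount: it was −2.45 with a pseudocount of 10 and −3.66 with 0.1. The authors' deposited table gives Acta2 a p of 0.0136 and an adjusted p of 0.846.

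Tagln encodes transgelin (SM22), which binds and bundles actin filaments. Its control value was 251 and its ID2 value 58.3, 4.25-fold lower after the pseudocount (ratio −2.09). Genes with means from 100 to 250 (1850 genes) had ratios from −0.97 at the 5th percentile to 1.06 at the 95th, so Tagln lay outside that span. The authors' deposited table gives it a p of 0.00331 and an adjusted p of 0.416. The library kit does not mark strand, and in GENCODE M21 the antisense gene Gm48529 covers 1241 of the 1988 exon bases of Tagln on the other strand, so reads of both cannot be told apart. Pcsk7, a proprotein convertase gene that shares 108 exon bases with Tagln on the other strand, was higher (477 and 619, 0.38).

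Cnn2 encodes calponin 2, which stabilizes actin filaments and dampens myosin activity. It stood at 1112 and 715, 1.55-fold lower (−0.63). Tpm1 and Tpm2 encode tropomyosins, which coil along the filament and gate the access of myosin. Tpm1 stood at 2205 and 1519 (−0.54), and Tpm2 at 1115 and 840 (−0.41). For means from 500 to 1000 the 5th percentile of the ratio was −0.56, and for means from 1000 to 2500 it was −0.44. Cnn2 and Tpm1 were therefore below the 5th percentile of their level and Tpm2 within it. The authors' deposited table gives Cnn2 a p of 0.0789 and Tpm1 a p of 0.0832, each with an adjusted p of 1.

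Lgals1 encodes galectin 1, a secreted lectin that binds beta-galactosides. It stood at 1899 and 1515 (−0.33). S100a6 encodes calcyclin, a small calcium-binding protein, and stood at 173 and 129 (−0.43). Anxa3 encodes a protein that binds phospholipids in the presence of calcium. It stood at 95.5 and 90.4 (−0.08), 5.34% lower. Flnc encodes filamin C, the filamin known from striated muscle, and stood at 2663 and 2450 (−0.12), 8.01% lower. These 4 ratios lay between the 5th and 95th percentiles of genes of their level, and those of Anxa3 and Flnc close to the middle. None of the 9 genes (0 of 9) in the authors' deposited table had an adjusted p under 0.05, beside 26 of 14398 genes (0.181%), and 2 (Tagln and Acta2) had an unadjusted p under 0.05, beside 3.85% of all genes. Those p-values come from 1 library per group. The set was chosen on values of the same libraries, so these counts describe the choice and test nothing.

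**Figure D2:**
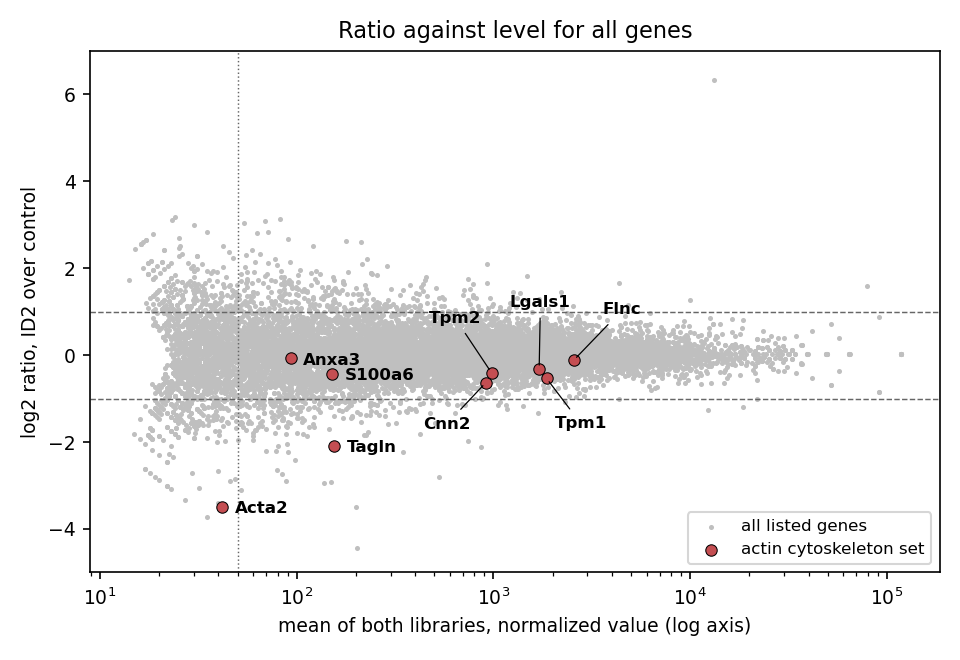
Log2 ratio of ID2 over control against the mean of both libraries (log axis) for all listed genes (grey) and the actin cytoskeleton set (red, named); dashed lines mark 2-fold and the dotted line the floor of 50. Acta2 and Tagln lie at the lower edge of the cloud, and the other 7 named genes lie in or near its body.

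Divided by the length of all exons of the gene in GENCODE M21, a newer annotation than that of the table's build, the levels of the set spanned a wide range in the control library. Lgals1 was highest at 2103 per kilobase, followed by Cnn2 (452), Tpm2 (383), Tpm1 (340) and Flnc (283). S100a6 (127) and Tagln (126) were alike, and Acta2 (35.3) and Anxa3 (26.2) were lowest. In the ID2 library, Lgals1 stood at 1678 per kilobase and Cnn2, Tpm2, Flnc and Tpm1 between 234 and 291. S100a6 stood at 94.1 there, Tagln at 29.3, Anxa3 at 24.8 and Acta2 at 2.75 per kilobase. Tagln thus stood beside S100a6 in the control and near Anxa3 in the ID2 library, and Acta2 passed from above Anxa3 to the lowest place. With 1 library per group, whether neighbours in this order differ could not be judged.

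Other genes of the same protein families were compared on the ratio. In the actin family the cytoplasmic actins Actb (19105 and 24520, 0.36) and Actg1 (18184 and 18361, 0.01) were higher or nearly equal where Acta2 was lower. Acta1, Actc1 and Actg2 were not listed, and reads of actin genes may be shared among near-identical copies. Myl9 is the regulatory myosin light chain of smooth muscle, and its close relatives Myl12a (4596 and 4709, 0.04) and Myl12b (5188 and 5770, 0.15), which are near-identical to each other, were slightly higher. Of the 7 listed myosin light chains, 5 were higher and 2 lower, beside 51.5% lower of all genes above the floor. Myl7, of the heart atrium, stood at 102 and 152 (0.58). The others were Myl6 (0.20), Mylpf (0.03), Myl6b (−0.08) and Myl4 (−0.10).

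Transgelins and calponins, which share a calponin-homology domain, were all lower. For Tagln and Cnn2 the choice of the set determined this. The 3 other genes above the floor were lower too, beside 51.5% of all genes above the floor. Tagln2, the widely expressed transgelin, stood at 10407 and 9092 (−0.19), Tagln3 at 217 and 143 (−0.60), Cnn3 at 11157 and 8820 (−0.34) and Cnn1, under the floor, at 48.8 and 24.1 (−0.99). Tagln had the lowest ratio of the 6 genes. In the tropomyosin family, Tpm1 and Tpm2 were lower, whereas Tpm3 was higher (7301 and 9705, 0.41) and Tpm4 nearly equal (1769 and 1728, −0.03). Tropomyosin genes share conserved exons, so their reads may be split among them. Of the filamins, Flna, the broadly expressed one, stood at 15425 and 17557 (0.19), beside −0.12 for Flnc.

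The galectins diverged. Lgals1 (−0.33) and Lgals8 (382 and 320, −0.26) were lower, and Lgals3, a galectin of macrophages and epithelia, was higher (196 and 330, 0.75), as was Lgals4 (51.7 and 99.5, 0.93). Lgals9 (48.8 and 30.1) and Lgals12 (68.7 and 30.1) were under the floor and lower. Of the S100 genes, S100a6 and S100a1 (267 and 213, −0.32) were lower, S100a10 was higher (802 and 1061, 0.40), and S100a11 (−0.05), S100a13 (−0.04) and S100a16 (−0.10, under the floor) were nearly equal. All 9 listed annexins were lower (8 of them outside the set), beside 51.5% of all genes above the floor, with a median of −0.29. Anxa2, which forms a complex with S100a10, stood at 641 and 406 (−0.66), Anxa8 at 298 and 189 (−0.65) and Anxa11 at 1254 and 850 (−0.56). Anxa7 (−0.31), Anxa1 (−0.29), Anxa4 (−0.26), Anxa5 (−0.20) and Anxa6 (−0.10) followed. Anxa3 had the ratio closest to 0 of the family. None of the 9 was 2-fold apart, beside 1.86% of all genes above the floor at least 2-fold lower and 2.53% higher.

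**Figure D3:**
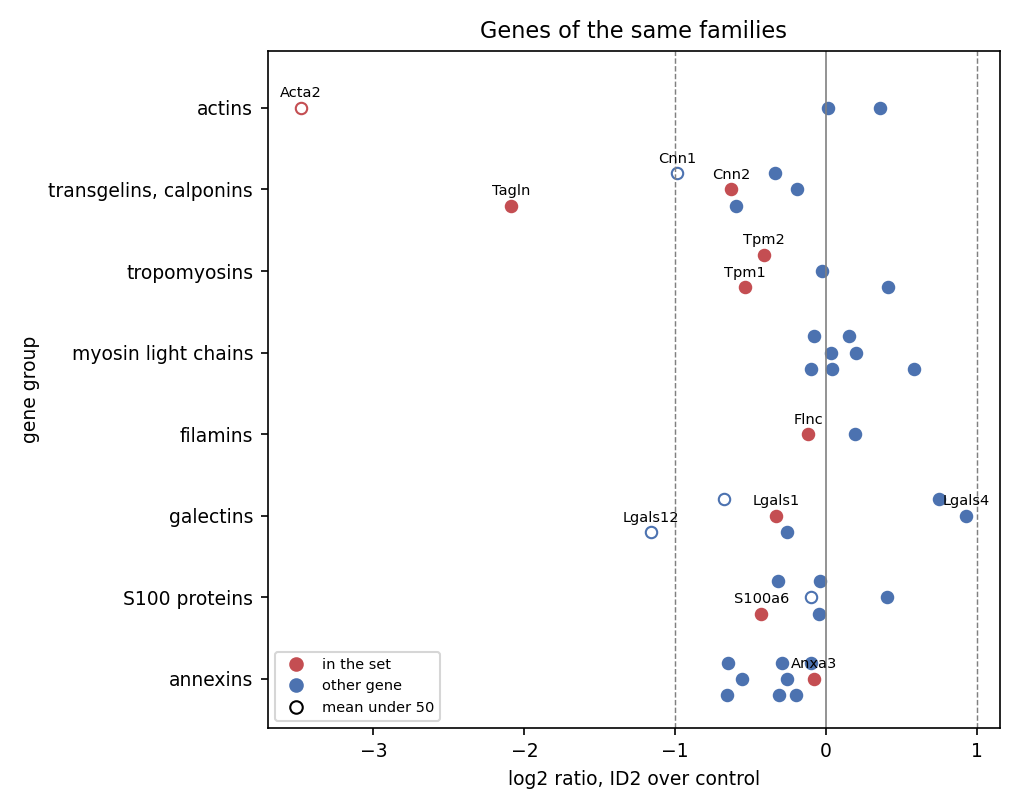
Log2 ratio of ID2 over control for genes of the protein families to which the actin cytoskeleton set belongs; red points are genes of the set, blue points other genes, open points have a mean under 50, and vertical offsets only separate points. Acta2 lies at −3.48 while Actb and Actg1 lie at 0.36 and 0.01, and all transgelins, calponins and annexins lie left of 0.

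The contractile genes known from smooth muscle did not share one direction. Of 19 genes, 13 were listed and 8 were above the floor, 4 higher and 4 lower, with a median of 0.00. Of all genes above the floor, 51.5% were lower, 1.86% at least 2-fold lower and 2.53% at least 2-fold higher. Tagln was the only gene of the 8 that was 2-fold apart, and the other 7 split into 4 higher and 3 lower (median 0.04). Hspb6, a small heat shock protein of muscle, was higher (410 and 631, 0.62), and Synm, an intermediate filament protein (554 and 441, −0.33), and Des (−0.29) were lower. Cald1, which encodes caldesmon, stood at 2396 and 2619 (0.13) and Itga8 at 61.7 and 66.3 (0.10). Under the floor, Acta2 (77.6 and 6.03), Cnn1 (48.8 and 24.1) and Myh11 (33.8 and 25.1) were lower. So was Mylk, the myosin light chain kinase (41.8 and 38.2), whereas Synpo2 was higher (9.95 and 30.1). With no floor the median of the 13 genes was −0.13.

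Genes of the general actin and myosin cytoskeleton were closer together. The 23 reported had a median of 0.09: 15 were higher, 7 were lower, 1 was equal, and none was 2-fold apart. Of all genes above the floor, 51.5% were lower, 1.86% at least 2-fold lower and 2.53% at least 2-fold higher. Most of the 23 had means of 2500 or more, where only 0.167% of genes were at least 2-fold lower. Their narrow span can therefore not be told apart from their level. Pfn1, encoding profilin, which loads actin monomers onto filaments, had the largest ratio (5416 and 7255, 0.42). It was followed by Actb (0.36), Lasp1 (6964 and 8173, 0.23) and Rdx, encoding radixin (3729 and 4292, 0.20), while Vcl, encoding vinculin, stood at 1710 and 1523 (−0.17).

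Srf and the genes of its MRTF cofactors were slightly higher. Srf stood at 1478 and 1644 (0.15), Mkl1 (MRTF-A) at 728 and 878 (0.27) and Mkl2 (MRTF-B) at 446 and 611 (0.45). The ternary complex factors, which compete with MRTFs for SRF, stood at 289 and 560 for Elk3 (0.95), 1270 and 1146 for Elk1 (−0.15) and 549 and 576 for Elk4 (0.07). Scai, which represses MRTF activity, was lower (775 and 506, −0.61). The small GTPases that drive filament assembly were Rhoa (6942 and 6046, −0.20), Rhob (344 and 587, 0.77) and Rhoc (1850 and 2239, 0.28). Of their effectors, Rock1 stood at 0.22, Rock2 at −0.12, Diaph1 at −0.23, Limk1 at 0.23 and Limk2 at 0.08. Cfl2, encoding the cofilin of muscle, stood at −0.18. The 16 listed regulators had a median of 0.12, with 10 higher, 6 lower and none 2-fold apart. Of all genes above the floor, 51.5% were lower, 1.86% at least 2-fold lower and 2.53% at least 2-fold higher. Myocd, Fhl2 and Abra were not listed.

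Known SRF and MRTF targets outside the set went both ways. The 29 above the floor had a median of 0.06: 15 were higher, 13 were lower and 1 was equal, beside 51.5% lower of all genes. Thbs1, encoding the matrix protein thrombospondin 1 (245 and 31.2, −2.93), and Fos (215 and 102, −1.06) were at least 2-fold lower, and Egr1 (162 and 357, 1.13) was at least 2-fold higher. Ctgf, a matricellular gene, stood at 82.6 and 141 (0.76). The share at least 2-fold lower was 2 of 29, beside 1.86% of all genes, and the share at least 2-fold higher 1 of 29, beside 2.53%. Fos and Egr1, both immediate early genes with SRF sites, thus stood on opposite sides.

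Transforming growth factor beta (TGF-beta) signaling is a known inducer of Acta2 and Tagln. Of its 17 genes reported, 7 were higher and 10 lower, beside 51.5% lower of all genes above the floor, with a median of −0.02. The inhibitor Smad7 (1315 and 2380, 0.86), Ctgf (0.76) and the co-receptor Eng (1465 and 2235, 0.61) were higher. The ligand Tgfb1 stood at 546 and 448 (−0.29) and its receptors Tgfbr1 and Tgfbr2 at 0.19 and 0.48.

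**Figure D4:**
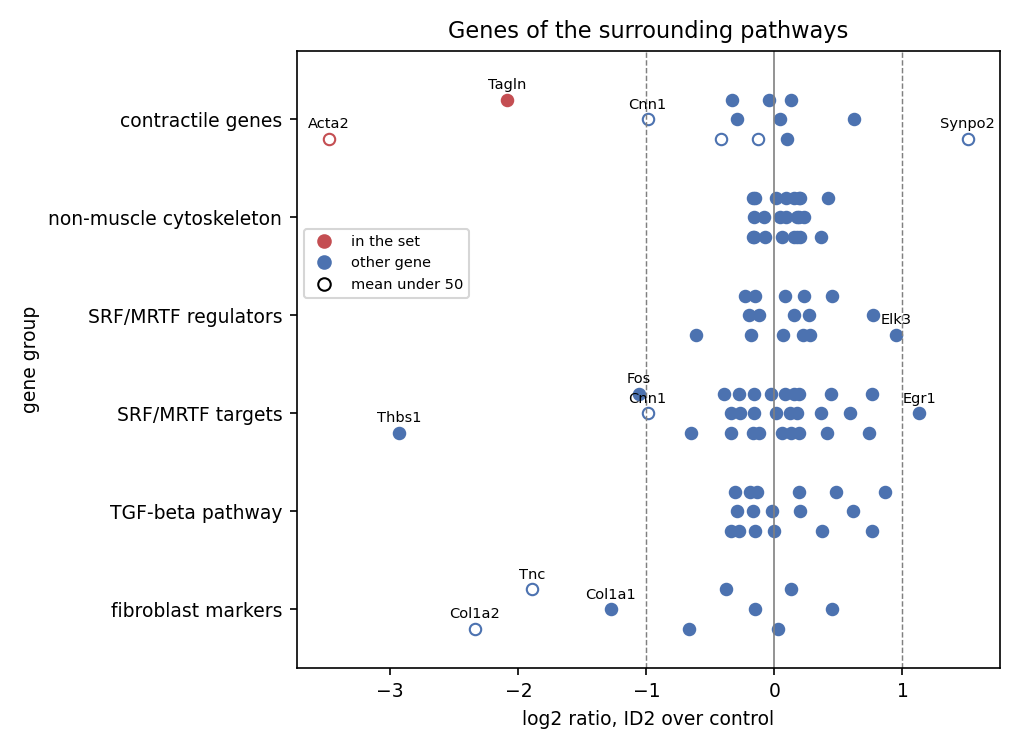
Log2 ratio of ID2 over control for genes of 6 gene groups around the actin cytoskeleton set; red points are genes of the set, blue points other genes, open points have a mean under 50, and genes with a ratio of 0.9 or more in size are named. Acta2 and Tagln lie far left of the other contractile genes, and the non-muscle cytoskeleton lies between −0.17 and 0.42.

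Above the floor, markers of fibroblasts, cells that can make Acta2 and Tagln, went both ways. Of 16 markers of fibroblasts and feeder cells, 9 were listed and summed to 3545 in the control and to 2736 with ID2. Of the 7 above the floor, 3 were higher and 4 lower (median −0.15), beside 51.5% lower of all genes above the floor, with Col1a1 (339 and 139, −1.28), Thy1 (966 and 608, −0.67), Loxl1 (191 and 262, 0.45) and Pdgfrb (768 and 589, −0.38) the farthest from 0. The others were Col5a1 (−0.15), Fbn1 (0.13) and Pdgfra (0.03). Under the floor, Col1a2 stood at 39.8 and 7.03 and Tnc at 28.9 and 7.03, while Col3a1, Dcn, Lum and Postn were not listed. With no floor the median of the 9 was −0.38. Then 3 were at least 2-fold lower and 0 at least 2-fold higher, beside 3.26% and 3.83% of all genes. Striated muscle markers summed to 880 and 677 over the 4 listed of 10, with Actn2 at 192 and 90.4 (−1.08), Myh6 at 69.7 and 46.2 (−0.58), Tnni3 at −0.28 and Ttn at 0.22. Endothelial markers summed to 4712 and 4100 over the 4 listed of 7, with Vwf at −0.59, Pecam1 at −0.16, Tek at −0.10 and, under the floor, Tie1 at 31.8 and 44.2 (0.46). Trophectoderm markers summed to 1225 and 1256 over the 5 listed of 8, among them Krt7 (73.6 and 6.03, under the floor), Eomes (0.42), Krt18 (−0.41) and Krt8 (0.30). Extraembryonic endoderm markers summed to 15738 and 16571 over the 8 listed of 10, with Sox7 at 16.9 and 127 (2.83), Gata4 at −0.93, Dab2 at 0.21 and Lama1 at 0.14. Of 10 mesoderm markers only Tbx6 was listed (85.6 and 110, 0.35). Stem cell markers summed to 135252 and 162949, with Zfp42 (0.85), Klf4 (0.50), Esrrb (0.48) and Sox2 (0.37) the farthest from 0. The part that any of these cell types had in the lower values of Acta2 and Tagln was not tested.

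The genes most like Tagln and Acta2 were sought by distance in control level and ratio, both on the log2 scale, over the 2 libraries. Nearest to Tagln were Esx1 (225 and 68.3, −1.70), Micall2 (343 and 95.5, −1.84) and Fbln2, a matrix protein gene (187 and 58.3, −1.67). Nearest to Acta2 were Krt7, a keratin gene of simple epithelia (73.6 and 6.03, −3.41), Slc7a11, a cystine transporter gene (81.6 in the control, ratio −2.90), and Rgcc (49.8 and 4.02, −3.34). All 6 of these genes were chosen for this likeness, and their values are a description.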

How the data were processed

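RNA was sequenced from 2 cultures, 1 library each, with RNA extracted by Trizol and a TruSeq RNA v2 kit, per the labels' protocols. The submitters' processing notes name STAR, DESeq and genome build mm9, without versions; how reads were counted, and on which annotation, is not given in the sources used here. Each row of the deposited table gives a normalized signal value per gene and library, the authors' fold (ID2 over control), the log2 of that fold deposited by the authors, and the authors' p-value and adjusted p-value, which rest on no replicates.

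The signal values deposited by the authors are whole numbers of steps (within 0.01 of a step; 1 step is 0.995 for control and 1.00 for ID2), and the sorted whole numbers of both libraries differ at 0 ranks. A common distribution had therefore been imposed on them, and they are not read counts, so depth is unknown and no counting interval was computed. Medians and shares lower over all genes can therefore not show a shift of all genes together.

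Log2 ratios were computed with a pseudocount of 1, which understates the ratio of low genes. Lists and shares use genes with a mean over both libraries of at least 50, and genes were called higher, lower or equal on whole steps. A 2-fold difference is a rule of size, with no test. Spans by level are the 5th and 95th percentiles of the ratio over genes of like mean. The genes and lists were chosen with earlier results of these data known. Named genes were the 10 genes, all listed family genes and regulators, the 4 largest ratios of each other list and any gene 2-fold apart, and the 3 genes nearest to Tagln and Acta2 (leaving out predicted or unnamed genes); some further genes of the stated lists are named to complete them, after their values were seen. Promoters are RefSeq's (GRCm38.p6), matched by symbol for 7 of 10 genes; exon lengths and overlaps are from GENCODE M21. Protein sequences were not used here. Of the listed genes, 3 are not reported here and enter no list count, median or plot, so counts of the contractile, non-muscle cytoskeleton, TGF-beta and filamin lists cover the reported genes only. Alternatives were another scaling, whole steps, pseudocounts of 0.1 and 10, no floor or a floor of 250, folds of 1.5 and 4, and the authors' log2 column. The scripts were tested on control values with planted 4-fold differences and no added noise, on simulated steps and on a planted CArG box. This checks the code and not how ratios vary between libraries. Python 3.11.15, numpy 2.4.6 and pandas 2.3.3 were used.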

Additional observations from a re-analysis of the deposited data

How the results depend on the processing

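No paired analysis was possible because each group had 1 library. Of 453 recomputed values, 403 stayed within 0.1 (log2 ratios and medians) or 1.5 times (counts and shares), 50 moved and 0 reversed. Many of the 403 were counts of 0 that stayed 0. A count of 0 at 2-fold could only be 0 at 4-fold or above a higher floor. Counts have no sign, so none could reverse. The tally therefore does not measure how stable the results are. Without a floor, the medians of galectins (0.24 to −0.29) and trophectoderm markers (0.30 to −0.41) changed sign and were counted as moved. The other scaling (median ratio 0.9984) and the whole steps (shift −0.01) could hardly move any value. With a pseudocount of 10 the ratio of Tagln was −1.93, and 1 SRF and MRTF target was at least 2-fold lower instead of 2. The ratio of Acta2 was −2.45 with a pseudocount of 10 and −3.69 in the authors' log2 column.

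Without a floor, 2 genes of the set were at least 2-fold lower, beside 3.26% of all genes, with 3.83% higher. For the set of 10 genes, this setting was added after the data were seen. Medians were then −0.13 for contractile genes (2 at least 2-fold lower, 1 higher), −0.29 for galectins (1 lower), −0.29 for smooth muscle markers, −0.38 for fibroblast markers (3 lower) and −0.41 for trophectoderm markers (1 lower). With a floor of 250, 0 genes of the set were at least 2-fold lower, beside 0.553% of all genes, with 1.10% higher. Contractile genes, SRF and MRTF targets, transgelins and calponins (median −0.34), and fibroblast markers (median −0.38) then each had 0 at least 2-fold lower, galectins had a median of −0.26, and 0 extraembryonic endoderm markers were higher.

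At 1.5-fold, 2 genes of the set were lower, beside 6.59% of all genes, with 8% higher. Then 3 SRF and MRTF targets, 3 transgelins and calponins, 2 annexins, 2 fibroblast markers and 1 each of the contractile genes, regulators, and striated muscle, endothelial and extraembryonic endoderm markers were lower. Higher at 1.5-fold were 4 SRF and MRTF targets, 3 TGF-beta genes, 2 regulators, 2 galectins, 1 contractile gene, 1 extraembryonic endoderm marker and 1 stem cell marker. At 4-fold, 1 gene of the set (Tagln) was lower, beside 0.142% of all genes, with 0.181% higher. Tagln was also the 1 gene lower among contractile genes, and among transgelins and calponins. Among SRF and MRTF targets 1 was lower and 0 higher. Among fibroblast and striated muscle markers 0 were lower, and 1 extraembryonic endoderm marker was higher.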
